A study of Homo sapiens with 2 samples.

Results

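The genes described here are 10 surface antigens of acute myeloid leukemia (AML) and markers of its stem cells, out of 50868 gene identifiers in the expression table: CD33, IL3RA, CD47, CLEC12A, CD38, CD34, KIT, HAVCR2, LILRB4 and CD244. They were chosen by name, with earlier results of these data known, and all 10 were found. RNA-seq was performed on Molm13, a cell line from human AML with a KMT2A::MLLT3 fusion, with 1 library of cells given the control vector (Vector) and 1 library of cells labelled as overexpressing UNC5B (OE-UNC5B). According to the methods, the UNC5B lentivirus was packaged in HEK-293T cells, its construct used a CMV promoter, a FLAG tag and mCherry, and infected cells were selected with puromycin, while the making of the Molm13 Vector culture is not described. The sources used here do not say whether the transduced cells were a clone or a pool.

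The surface of an AML blast carries receptors that are also found on normal myeloid cells. CD33 (a sialic acid binding lectin), IL3RA (CD123, the alpha chain of the interleukin 3 receptor) and CLEC12A (CLL-1, a C-type lectin receptor) are targets of antibodies and of engineered T cells in AML. CD34 and KIT mark immature cells, CD38 is acquired as progenitors mature, and a CD34-positive, CD38-negative phenotype is widely used to enrich leukemia stem cells. CD47 is the signal that keeps macrophages from engulfing a cell, and LILRB4, HAVCR2 (TIM-3) and CD244 (2B4) are immune receptors that have been described on AML cells.

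In Molm13, 5 of the 10 genes were well expressed in both libraries (CD33, LILRB4, IL3RA, CD47 and CD244), CLEC12A and CD38 were low, HAVCR2 and KIT were close to the detection limit, and CD34 had 0 reads. CLEC12A and CD38 fell in the library labelled OE-UNC5B, by 4.73-fold and 2.47-fold. The 5 well expressed antigens lay between 1.02-fold and 1.32-fold above Vector, but for CD47 and CD244 the 95% counting interval included no change. The stem cell markers CD34 and KIT were thus absent or nearly so from the counts of these cells.

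The libraries held 13715566 (Vector) and 15637137 (OE-UNC5B) reads counted on genes, and the test was run on the 15384 genes that reached 10 reads when both libraries were added. UNC5B itself (chromosome 10, 71212570 to 71302864) had 0 reads in either library, so its overexpression is not visible in these counts, and the name OE-UNC5B is used below as a label. All 11 leukocyte and myeloid markers were tested, with summed levels of 7060 CPM (counts scaled to the library total) in Vector and 4079 CPM in the library labelled OE-UNC5B, and LYZ had the highest FPKM among them. Markers of other cell types were mostly at or near 0. The 5 B cell markers summed to 0.292 and 0.895 CPM with CD79A the highest, and the 7 erythroid and megakaryocyte markers to 1.17 and 0.640 CPM with HBB the highest. The 6 epithelial and HEK293 markers summed to 0.802 and 0.128 CPM, from CDH2 (6 and 0 reads) and KRT18 (5 and 2 reads), with the other 4 at 0 reads. The 6 endothelial markers summed to 119 and 94.2 CPM, nearly all of it from PECAM1, which leukocytes also express, while KDR and CDH5 had 0 reads. The 9 T and NK cell markers summed to 58.1 and 52.1 CPM, nearly all of it from TRAC (379 and 395 reads), NKG7 (340 and 315 reads) and CD3D (67 and 102 reads), while CD2 and KLRD1 had 0 reads and CD3E had 1 read in Vector and 0 in the other library. The part of these transcripts in the results below was not tested.

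With 1 library per group there was no replicate check, and no test of the conditions could be made. A gene was called higher or lower where its TMM-scaled counts differed by at least 2-fold and the reads passed a two-sided exact binomial test at an adjusted p under 0.05 (Benjamini-Hochberg, over all tested genes). That test compares the libraries, and all intervals below are 95% intervals that cover counting error alone. Of all tested genes, 3.39% were called higher and 3.39% were called lower by this rule. In a bulk library, fewer cells that carry a transcript and less of it per cell cannot be told apart. The counts are of RNA, and protein at the cell surface, including exposed CALR, was not measured.

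**Figure D1:**
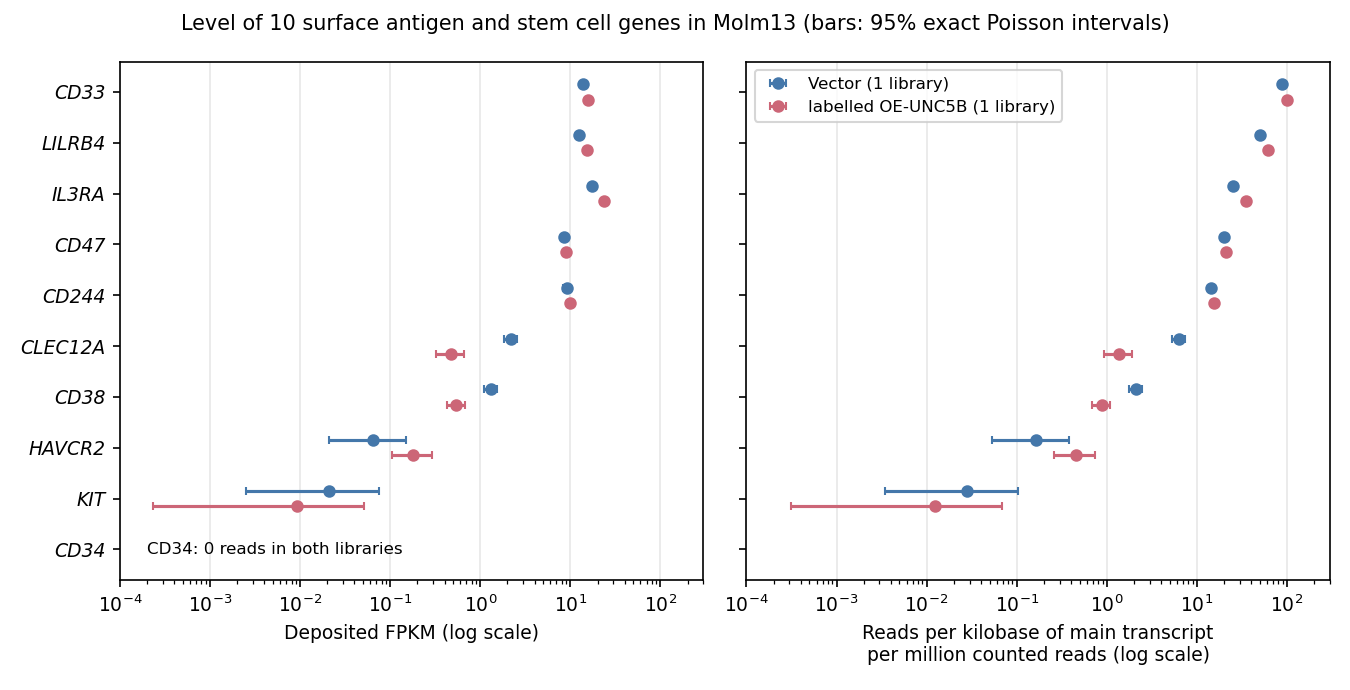
Level of each gene (rows) for Vector (blue) and the library labelled OE-UNC5B (red), as deposited FPKM (left) and as RPKM of the main transcript (right), both on log axes with 95% exact Poisson intervals. For each of CD33, LILRB4, IL3RA, CD47 and CD244 the points of both libraries lie close to each other, CLEC12A and CD38 lie lower in the library labelled OE-UNC5B, and CD34 has 0 reads.

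Levels were compared between genes on the deposited FPKM (fragments per kilobase of gene length, scaled to the counted reads of the library). IL3RA had the highest FPKM of the 10 genes in both libraries, 17.5 (interval 16 to 19) in Vector against 23.9 (22.3 to 25.6) in the library labelled OE-UNC5B. In Vector its FPKM was above that of 88.7% of the 13425 protein-coding genes with an FPKM above 0. CD33 followed with FPKM values of 13.97 and 15.87, and LILRB4 with 12.4 and 15.3. CD244 and CD47 came next with 9.16 and 8.47 FPKM in Vector, and 9.99 and 8.92 FPKM in the library labelled OE-UNC5B. The FPKM intervals of CD244 and CD47 overlapped in both libraries, and those of CD33 and LILRB4 overlapped in the library labelled OE-UNC5B, so these neighbours could not be ordered at this depth.

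This order depended on the gene length behind the FPKM. The length that count and FPKM together imply was 9266 nt for CD33, while its main (Ensembl canonical) transcript in GENCODE 44 has 1462 nt in 7 exons, a ratio of 6.34. The same ratio was 4.05 for LILRB4, 2.90 for CLEC12A, 2.38 for CD47, 1.58 for CD244 and 1.46 for IL3RA. On the RPKM of the main transcript (reads per kilobase of it, scaled to the counted reads), CD33 was the highest of the 10 genes with 88.5 in Vector against 101 in the library labelled OE-UNC5B. Below it on this scale came LILRB4 with 50.1 and 61.8, IL3RA with 25.5 and 34.8, CD47 with 20.2 and 21.2, and CD244 with 14.4 and 15.7. The intervals of these 5 genes did not overlap between neighbours in either library. CLEC12A (6.28 and 1.36) and CD38 (2.10 and 0.876) followed, with intervals that overlapped in the library labelled OE-UNC5B on both scales. Which transcripts the cells used was not measured, so neither scale can be taken as the true order. Fold changes of the read counts do not depend on this length, while those on FPKM with a constant added do.

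CLEC12A had the largest change of the tested members. It encodes an inhibitory C-type lectin receptor of myeloid cells that is prominent on AML blasts and scarce on normal stem cells, and it lies on chromosome 12 from 9951316 to 9995694 on the plus strand of GRCh38, with 6 exons in its main transcript. Its reads numbered 134 for Vector against 33 for the library labelled OE-UNC5B, which is 2.17 (1.82 to 2.57) against 0.469 (0.323 to 0.658) FPKM. The log2 fold change was -2.24 (interval -2.85 to -1.70), and 1.63% of all tested genes changed as much in either direction. Exons of CLEC1B and CLEC12A-AS1 overlap it on the opposite strand, and both had 0 reads in both libraries.

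CD38, an ectoenzyme that consumes NAD and the target of the antibody daratumumab, also fell. The gene lies on chromosome 4 from 15778275 to 15853230 on the plus strand, with 8 exons in its main transcript. Its reads numbered 162 for Vector against 77 for the library labelled OE-UNC5B, which is 1.299 (1.11 to 1.51) against 0.541 (0.427 to 0.677) FPKM. The log2 fold change was -1.30 (-1.72 to -0.91), and 6.0% of all tested genes changed as much in either direction. These were the 2 of 8 tested members that were called lower, where 3.39% of all tested genes were, and 0 of 8 were called higher. With a biological coefficient of variation of 0.2 assumed between cultures, CLEC12A alone stayed called, and with 0.4 neither did. On FPKM with 1 added, the log2 fold changes were -1.11 for CLEC12A, still called, and -0.58 for CD38, which was no longer called.

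**Figure D2:**
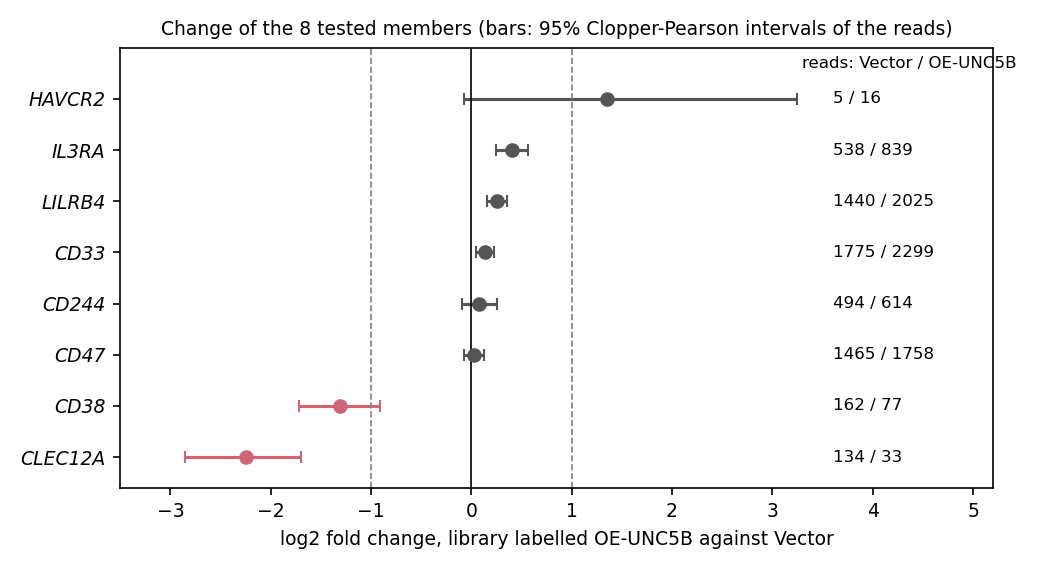
Log2 fold change of the 8 members with at least 10 reads, library labelled OE-UNC5B against Vector, with 95% Clopper-Pearson intervals of the reads and the read counts at the right. CLEC12A (-2.24) and CD38 (-1.30), in red, are past the dashed lines that mark 2-fold, and HAVCR2 is past 2-fold with an interval that reaches below 0.

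The promoters of CLEC12A and CD38 are shown because these genes were called lower, and those of CD33 and LILRB4 because these genes were the highest per kilobase of the main transcript. The sequences are those of RefSeq on GRCh38.p14, where 9 of the 10 members had an entry, and run from 250 bases before the annotated start to 50 bases after it. Capitals mark matches on either strand to a PU.1-type core (GAGGAA), a RUNX-type core (TGTGGT), a C/EBP-type pattern (TTNCNNAA) or a GC box (GGGCGG). PU.1, RUNX and C/EBP proteins are transcription factors of myeloid cells. No printed match overlaps one of another kind.

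CLEC12A, chr12:9971159-9971458, plus strand:
CLEC12A: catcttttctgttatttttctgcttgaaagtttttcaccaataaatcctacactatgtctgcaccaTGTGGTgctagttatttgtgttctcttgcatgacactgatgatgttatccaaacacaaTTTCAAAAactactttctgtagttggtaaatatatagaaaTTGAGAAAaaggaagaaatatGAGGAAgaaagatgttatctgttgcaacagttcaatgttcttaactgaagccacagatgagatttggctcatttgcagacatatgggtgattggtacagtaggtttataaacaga

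CD38, chr4:15778078-15778377, plus strand:
CD38: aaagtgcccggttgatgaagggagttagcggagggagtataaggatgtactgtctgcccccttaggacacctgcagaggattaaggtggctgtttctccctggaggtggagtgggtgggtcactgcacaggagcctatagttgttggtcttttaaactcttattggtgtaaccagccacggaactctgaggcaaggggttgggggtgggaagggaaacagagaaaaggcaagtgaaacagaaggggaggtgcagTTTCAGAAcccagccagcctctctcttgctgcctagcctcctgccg

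CD33, chr19:51224830-51225129, plus strand:
CD33: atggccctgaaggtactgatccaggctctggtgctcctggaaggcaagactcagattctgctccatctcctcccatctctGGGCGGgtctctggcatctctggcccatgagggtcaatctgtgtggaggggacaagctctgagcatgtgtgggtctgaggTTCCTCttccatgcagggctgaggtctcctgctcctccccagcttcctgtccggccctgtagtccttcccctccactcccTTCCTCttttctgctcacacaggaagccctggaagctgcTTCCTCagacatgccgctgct

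LILRB4, chr19:54662735-54663034, plus strand:
LILRB4: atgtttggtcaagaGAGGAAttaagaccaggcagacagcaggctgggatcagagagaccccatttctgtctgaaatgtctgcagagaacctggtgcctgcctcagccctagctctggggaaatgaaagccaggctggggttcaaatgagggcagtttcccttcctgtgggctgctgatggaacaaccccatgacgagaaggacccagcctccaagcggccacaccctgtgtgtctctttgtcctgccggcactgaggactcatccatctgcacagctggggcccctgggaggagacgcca

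The windows differed in composition. That of CLEC12A was 34.0% G or C and held 0 CpG dinucleotides, and that of CD38 was 54.0% G or C with 4 CpG. By contrast the window of CD47, a gene that most cell types express, was 79.0% G or C with 45 CpG and 6 GC boxes, and that of KIT was 74.3% G or C with 38 CpG. The median over 27195 promoters was 58.3% G or C and 14 CpG. CLEC12A held 1 PU.1-type core, 1 RUNX-type core and 2 C/EBP-type patterns, CD38 held 1 C/EBP-type pattern, CD33 held 3 PU.1-type cores and 1 GC box, and LILRB4 held 1 PU.1-type core. Of all promoters, 27.6% held the PU.1-type core, 13.1% the RUNX-type core, 37.2% the C/EBP-type pattern and 44.7% the GC box. A match is a description of letters and does not show binding. The annotated loci of CLEC12A and LILRB4 start well upstream of the windows printed, and the starts that the cells used were not measured.

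The 5 well expressed antigens differed less between the libraries. IL3RA, on chromosome X from 1336616 to 1382689, was counted 538 times for Vector against 839 times for the library labelled OE-UNC5B, with a log2 fold change of 0.40 (0.25 to 0.56). Of all tested genes, 40.6% changed as much or more. IL3RA and CSF2RA lie in the pseudoautosomal region, whose sequence is present on both sex chromosomes, and how the authors counted reads that fit both copies is not given in the sources used here.

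LILRB4, on chromosome 19 from 54643889 to 54670359, encodes an inhibitory receptor of monocytic cells. Its reads numbered 1440 for Vector against 2025 for the library labelled OE-UNC5B, a log2 fold change of 0.26 (0.16 to 0.35). Its paralogs are close in sequence, so the counting could split reads between them, and the pseudogene VN1R105P, which covers 13.0% of the exonic bases of LILRB4, had 0 reads in both libraries. CD33, on chromosome 19 from 51225064 to 51243860, had 1775 reads and 2299 reads, a log2 fold change of 0.14 (0.05 to 0.23). These 3 genes had intervals above 0, but 40.6%, 58.6% and 76.8% of all tested genes changed as much as IL3RA, LILRB4 and CD33.

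CD244, a receptor of the SLAM family on chromosome 1 from 160830160 to 160862855 on the minus strand, was counted 494 times for Vector against 614 times for the library labelled OE-UNC5B. The resulting log2 fold change was 0.08 (-0.10 to 0.25). CD47, on chromosome 3 from 108043298 to 108091025 on the minus strand, had 1465 reads and 1758 reads, a log2 fold change of 0.03 (-0.07 to 0.13). For both genes the interval held 0.

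HAVCR2, the T cell and myeloid checkpoint receptor TIM-3, lies on chromosome 5 from 157085832 to 157142869 on the minus strand. Its reads numbered 5 for Vector against 16 for the library labelled OE-UNC5B, which is 0.0645 (0.0209 to 0.150) against 0.181 (0.103 to 0.294) FPKM. The log2 fold change of 1.35 had an interval of -0.07 to 3.24 and did not pass the read test, so no difference was detectable at this depth. Its exons share 50 bases with those of MED7 on the same strand, which had 174 and 239 reads.

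The stem cell markers were at the detection limit. CD34, a sialomucin of stem and progenitor cells on chromosome 1 from 207880972 to 207911402 on the minus strand, had 0 reads in both libraries. By the usual one-sided limit, which is not the interval used for the other levels, a count of 0 allows up to 3 reads, which is 0.219 CPM in Vector and 0.192 CPM in the library labelled OE-UNC5B. KIT, the receptor of stem cell factor on chromosome 4 from 54657918 to 54740715, had 2 reads (Vector) and 1 read (library labelled OE-UNC5B). Both genes were below the minimum of 10 reads and were not tested, and no fold change is given. At the same depth FLT3, another type III receptor kinase of early progenitors, had 4067 and 6395 reads and 59.2 and 81.6 FPKM.

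**Figure D3:**
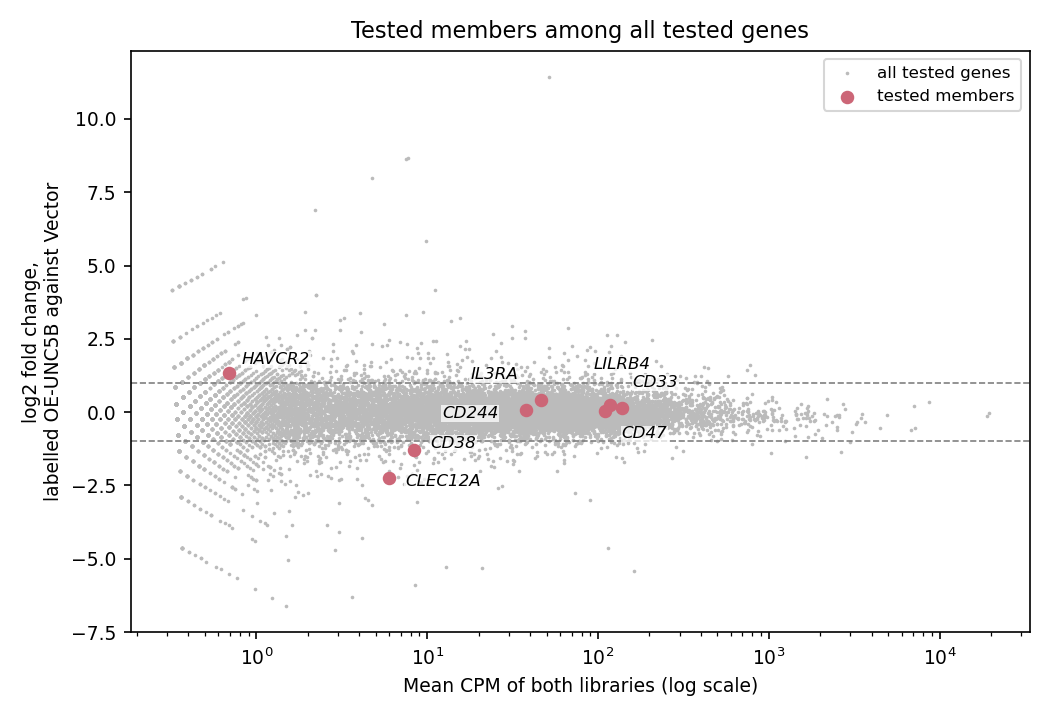
Log2 fold change (library labelled OE-UNC5B against Vector) against mean CPM of both libraries on a log axis, for all 15384 tested genes (grey) and the 8 tested members (red), with dashed lines at 2-fold. CLEC12A and CD38 lie below the dashed line, HAVCR2 lies among the low counts where the spread of all genes is wide, and the other members lie inside the band of most genes.

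Over the 8 tested members the median log2 fold change was 0.11, with 6 positive and 2 negative values, beside a median of -0.01 over all tested genes. Other genes of the pathways around the members were taken from 15 lists of partners, relatives and further antigens. Of their 184 genes, 106 were tested, and 6 were called higher and 7 lower, where 3.39% of all tested genes were called in each direction. The lists were also chosen with earlier results of these data known, so these counts are a description and do not test for an excess.

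**Figure D4:**
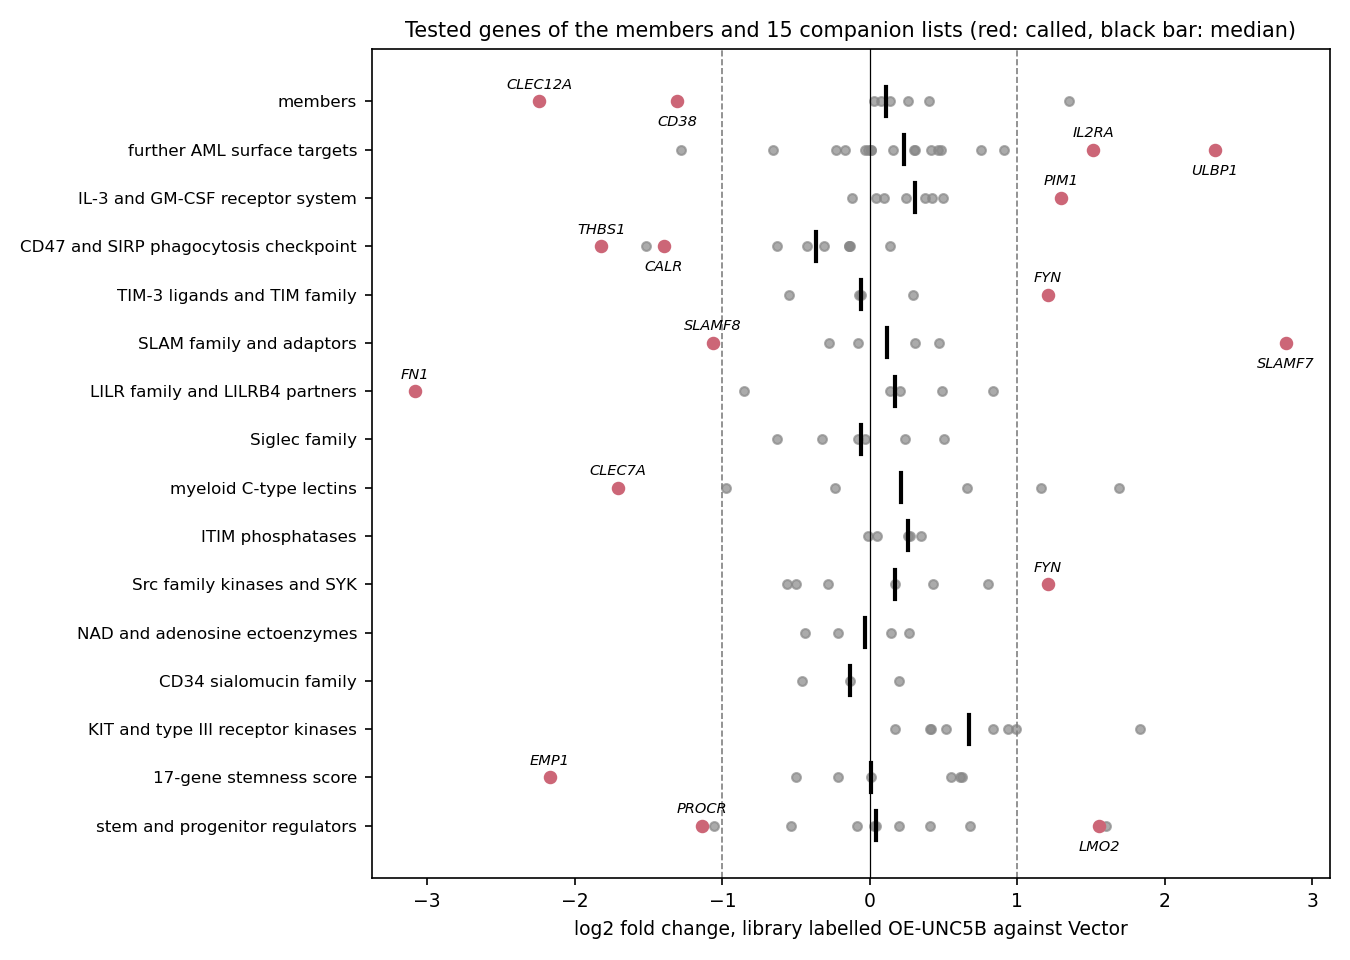
Log2 fold change (library labelled OE-UNC5B against Vector) of each tested gene in the members' list and in 15 companion lists (rows), with called genes in red and named, the median of each list as a black bar, and dashed lines at 2-fold. Most points lie inside the dashed lines, all 8 tested genes of the list around KIT lie above 0, and 9 of the 10 tested genes of the list around CD47 lie below 0. Of all 15384 tested genes, 7607 lie above 0 and 7777 below.

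Among 22 further AML surface targets, 18 were tested, 2 were called higher and 0 lower, with a median log2 fold change of 0.23. ULBP1, a stress-induced ligand of the NK cell receptor NKG2D, rose from 33 to 199 reads, a log2 fold change of 2.34 (1.82 to 2.93). IL2RA, the alpha chain of the interleukin 2 receptor, rose from 5 to 18 reads, with a wide interval of 0.13 to 3.40 on the log2 scale. FLT3 had the highest FPKM of this list and a log2 fold change of 0.42 (0.36 to 0.47). CXCR4, the receptor that holds blasts in the marrow, had 2387 and 1784 reads and a log2 fold change of -0.66 (-0.75 to -0.57), short of 2-fold.

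IL3RA pairs with the shared beta chain CSF2RB to signal through JAK2 and STAT5. Of 12 genes of the interleukin 3 and GM-CSF receptor system, 8 were tested, and PIM1 was the 1 called gene. PIM1, a kinase induced by STAT5, rose from 1466 to 4244 reads, a log2 fold change of 1.297 (1.21 to 1.38), and had the highest FPKM of the list. The receptor chains had log2 fold changes of 0.42 (CSF2RA) and -0.12 (CSF2RB), and those of the kinase and its factors were 0.24 (JAK2), 0.10 (STAT5A) and 0.49 (STAT5B). The feedback inhibitors CISH and SOCS1 had log2 fold changes of 0.37 (0.27 to 0.48) and 0.04 (-0.33 to 0.41), and SOCS2, which belongs to the stemness list below, had -0.50 (-0.64 to -0.36). Per kilobase of the main transcript, the level of IL3RA was 8.22 times that of CSF2RB in Vector against 11.9 times in the library labelled OE-UNC5B. IL3 and CSF2, the ligands, had 0 reads in both libraries.

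Around CD47, 10 of 11 genes of the phagocytosis checkpoint were tested, 0 were called higher and 2 lower, and the median log2 fold change was -0.37. Of these 10, 9 had negative values, where 7777 of the 15384 tested genes did, and not all of the 9 intervals excluded 0. CALR (calreticulin), an ER chaperone that acts as an engulfment signal when exposed on the surface, fell from 20310 to 9084 reads, a log2 fold change of -1.40 (-1.43 to -1.36). Per kilobase of the main transcript, the level of CALR was 38.6 times that of CD47 in Vector against 14.4 times in the library labelled OE-UNC5B. THBS1, a secreted ligand of CD47, fell from 13 to 4 reads, with a wide interval of -4.01 to -0.24 on the log2 scale. SIRPA, the receptor that reads CD47 on macrophages, was itself expressed by Molm13 with 2716 and 2898 reads and had a log2 fold change of -0.14.

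For CD38, 4 of the 11 listed enzymes of NAD and adenosine metabolism were tested and 0 were called. PARP1, a nuclear enzyme that consumes NAD, had the highest FPKM of these, 41.0 and 36.5. BST1, the paralog of CD38 that lies beside it on chromosome 4, had 211 and 183 reads and a log2 fold change of -0.44 (-0.74 to -0.15), smaller than that of CD38. Relative to BST1, CD38 was at 0.270 in Vector against 0.148 in the library labelled OE-UNC5B per kilobase of the main transcript.

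The C-type lectins related to CLEC12A were sparse. Of 17 listed, 6 were tested and 6 had 0 reads in both libraries. CLEC7A (dectin-1), which lies in the same cluster on chromosome 12, was called lower with 12 reads in Vector against 4 in the library labelled OE-UNC5B. Its adjusted p was only just under the threshold, and its interval of -3.91 to -0.10 on the log2 scale is wide. CLEC2D had the highest FPKM of the list, 1.68 and 2.74, and a log2 fold change of 0.66. CLEC12B, the neighbour and closest namesake of CLEC12A, had 5 reads and 0 reads and was not tested. Of 14 relatives of CD33 in the Siglec family, 6 were tested and 0 were called, and SIGLEC6 had the highest FPKM with 1.20 and 1.22.

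LILRB4 was far above its relatives. LILRB1 had 229 and 297 reads, and per kilobase of the main transcript the level of LILRB4 was 9.91 times that of LILRB1 in Vector against 10.7 times in the library labelled OE-UNC5B. Of 13 genes of the LILR family and proposed LILRB4 partners, 6 were tested, and the 1 called was FN1 (fibronectin), which fell from 75 to 10 reads. LILRA2, an activating receptor, had the highest mean FPKM of the list (1.80 and 2.62), beside LILRB1 with 2.06 and 2.34. The intervals of LILRA2 and LILRB1 overlapped in both libraries, so they could not be ordered at this depth. Per kilobase of the main transcript, LILRB1 had 5.06 and 5.75, and LILRA2 3.29 and 4.78. Receptors such as LILRB4 and CD33 recruit phosphatases, and of a list of 4 phosphatases and the kinase CSK 0 were called. PTPN11 (SHP-2) had the highest FPKM, 25.02 and 31.3, and PTPN6 (SHP-1), INPP5D (SHIP-1) and PTPN11 had log2 fold changes of -0.01, 0.26 and 0.27. Per kilobase of the main transcript, PTPN6 was above PTPN11, with 99.4 and 102 against 33.9 and 42.4. Of the 7 Src family kinases and SYK, FYN was called higher, from 651 to 1773 reads with a log2 fold change of 1.21 (1.08 to 1.34), and LYN had the highest FPKM with 41.2 and 47.8.

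CD244 binds CD48 on other cells and signals through SAP-type adaptors. CD48 had 326 and 476 reads, a log2 fold change of 0.31, and the highest FPKM of the SLAM list (5.77 and 7.40). The adaptors SH2D1A and SH2D1B had 0 reads in both libraries. Of 9 genes in this list 6 were tested. SLAMF8 fell from 89 to 50 reads, a log2 fold change of -1.06 (-1.60 to -0.55), and SLAMF7 was called higher with 1 read in Vector against 12 in the library labelled OE-UNC5B, an interval of 0.59 to 8.77. HAVCR2 has several proposed ligands, and of 8 genes in its list 5 were tested, with FYN, which TIM-3 can recruit, the 1 called. LGALS9 (galectin-9) had 2345 and 1887 reads and a log2 fold change of -0.55 (-0.64 to -0.46), and PTDSS1, which makes phosphatidylserine, had the highest FPKM with 41.9 and 53.1.

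KIT shares adaptors with FLT3. Of the 12 genes around KIT, 8 were tested and 0 were called. All 8 log2 fold changes were positive, with a median of 0.67, where 7607 of the 15384 tested genes were positive, and the intervals of KITLG, FLT3LG and CSF1R held 0. GAB2 had 1428 and 3349 reads with a log2 fold change of 0.99 (0.90 to 1.08), and GRB2 had 1169 and 2642 reads with 0.94 (0.84 to 1.04), both just short of 2-fold. KITLG, the ligand of KIT, had 2 and 10 reads. Of the 7 listed relatives and partners of CD34, 3 were tested and 0 were called, and PODXL2 (endoglycan) had the highest FPKM with 45.3 and 34.0.

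Of the 17 genes of a published stemness score for AML, 7 were tested, 3 had 0 reads in both libraries, and the median log2 fold change of the tested genes was 0.01. EMP1, a membrane protein, was the 1 called gene and fell from 51 to 13 reads, a log2 fold change of -2.17 (-3.21 to -1.31). CDK6, a G1 kinase of progenitors, had the highest FPKM, 22.9 and 36.5, and a log2 fold change of 0.62. Of 24 regulators and markers of stem and progenitor cells, 10 had 0 reads in both libraries, among them PROM1 (CD133), MECOM, ERG and HOPX, and 11 were tested. LMO2, a transcriptional adaptor of early hematopoiesis, rose from 929 to 3218 reads, a log2 fold change of 1.56 (1.45 to 1.66). PROCR (EPCR), a surface marker of hematopoietic stem cells, fell from 131 to 70 reads, a log2 fold change of -1.14 (-1.58 to -0.71). MYB had the highest mean FPKM of this list, 37.9 and 39.9, with a log2 fold change of 0.03. In the library labelled OE-UNC5B, LMO2 had 40.4 FPKM, and its interval overlapped that of MYB. Per kilobase of the main transcript, MYB was at 151 and LMO2 at 98.9 in that library.

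Of the 11 leukocyte and myeloid markers, 2 were called lower beside CLEC12A and CD38, where 3.39% of all tested genes were, and 0 were called higher. LYZ (lysozyme) fell from 51742 to 23700 reads and MPO (myeloperoxidase) from 3363 to 1553 reads, log2 fold changes of -1.36 and -1.35. The other 9 were not called. Among them the granule protease ELANE had 12355 and 9149 reads and a log2 fold change of -0.67 (-0.71 to -0.63), and AZU1, another granule protein, had 16026 and 13807 reads and -0.45 (-0.48 to -0.42). The log2 fold changes of the remaining markers were -0.23 for SPI1, -0.16 for CEBPA, -0.15 for CD68, 0.03 for TYROBP, 0.17 for CSF1R, 0.20 for FCGR2A and 0.73 for PTPRC (CD45). The part of these differences in the lower counts of CLEC12A and CD38 was not tested, and a difference between the cultures cannot be told apart from an effect of the construct.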

How the data were processed

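RNA of 2 Molm13 libraries was sequenced, 1 Vector and 1 labelled OE-UNC5B. The table the authors deposited holds unnormalized read counts for each gene beside FPKM values. The submitters' processing notes name bcl2fastq 2.19, HISAT2 2.0.4, StringTie 1.3.0 and GRCh38. The annotation release, the counting tool and the use of strand are not given in the sources used here.

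TMM factors (R 4.3.3, edgeR 4.0.16) scaled the libraries, and 0.5 reads were added for log2 fold changes. A gene needed 10 reads in the sum of both libraries to be tested, by a two-sided exact binomial test (scipy 1.17.1) with Benjamini-Hochberg adjustment. Levels have exact Poisson intervals and fold changes Clopper-Pearson intervals. Transcript lengths, exons and overlaps came from GENCODE 44, in which 49659 of 50868 identifiers were found. Promoters came from RefSeq. Protein sequences were not used here. AKR1C3 has 2 rows, of which the one found in GENCODE was used.

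The members and lists were chosen with earlier results of these data known. The text names UNC5B, the members, and from each list the called genes and the gene with the highest mean FPKM. B2M, CXCR4, CSF2RA, CSF2RB, JAK2, STAT5A, STAT5B, CISH, SOCS1, SOCS2, SIRPA, BST1, CLEC12B, LILRB1, PTPN6, INPP5D, CSK, GAB2, GRB2, KITLG, FLT3LG, LGALS9, the genes at 0 reads and some markers were named after their values were seen. The alternatives tried were size factors of DESeq2 1.42.0, library totals, FPKM (minimum 1) plus 0.1 or 1, 2 reads added, no filter, at least 50 reads, 1.5-fold, the fold alone, edgeR's exact test assuming 0.2 or 0.4 as the biological coefficient of variation, and reads per kilobase of the main transcript.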

Additional observations from a re-analysis of the deposited data

How the results depend on the processing

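No paired analysis was possible because each group held 1 library, so no library could be left out either. Under the 5 alternatives of scaling, unit and added reads, which can move a fold change, CLEC12A lay between -2.24 and -1.11 (log2) and CD38 between -1.30 and -0.58 (the latter with FPKM and 1 added). Members called lower numbered 2, and 1 with FPKM and 1 added, 1 with an assumed coefficient of variation of 0.2 and 0 with 0.4. Members called higher numbered 0, and 1 (HAVCR2) by the fold alone. Over all genes, 522 were called higher and 521 lower. FPKM, with 11564 genes tested, gave 334 and 237 with 0.1 added and 161 and 127 with 1 added. Library totals gave 581 and 461, at least 50 reads gave 359 and 297 from fewer genes tested, 1.5-fold gave 1300 and 1258, and the fold alone gave 792 and 737. The assumed coefficients of variation gave 131 and 121 (0.2) and 7 and 8 (0.4). Apart from thresholds and filters, whose construction shows the cause, the cause was not tested. The median over the members lay between 0.08 and 0.15, over 7 to 9 tested members depending on the setting. Per kilobase of the main transcript, 5 members changed their rank in Vector, with CD33 at rank 1 and IL3RA at rank 3. Depth limits HAVCR2, KIT and CD34.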

Other observations

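The length behind the deposited FPKM, computed from count, FPKM and library total, was compared with GENCODE 44 for 15177 tested genes. Its median ratio to the main transcript was 2.09, to the merged exons 1.39, and to the sum of all distinct annotated exons, in which overlapping exons count repeatedly, 1.0. The length was within 1% of that sum for 36.7% of the genes and within 1% of the merged exons for 15.9%. For the 3034 genes with 1 annotated transcript the median ratio to the main transcript was 1.0, and for the 12143 genes with more it was 2.44. The ratio was above 2 for 52.4% of the genes and above 5 for 11.2%. B2M, the light chain of MHC class I, had a length of 12755 nt behind its FPKM of 17.1 in Vector, against 943 nt in its main transcript, on which its RPKM would be 231. The release that the authors used was not compared.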
